A study of Mus musculus with 6 samples.

Results

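The blood-testis barrier junction genes examined here were Cldn11, Cldn3, Ocln, Tjp1, F11r, Jam3, Cdh2, Ctnnb1 and Gja1, 9 genes chosen by name and followed through every probe set that the array annotation assigns to them. They were read by 22 of the 22626 probe sets tested, and the whole array covered 12393 named genes. A pair of mouse cell preparations from testis was compared, each with 3 Affymetrix Mouse430A_2 arrays, on which a probe set is a group of short probes reporting 1 transcript. The tested preparation was titled spermatogonial stem cells and held cells positive for human CD4, isolated with magnetic beads from Stra8-CD4HAglo mice, with 50 males pooled for each preparation. The preparation it was set against was titled total testicular cells, while its source text names CD4-negative cells of the same transgenic line, so title and source differ, and 1 sample-type text stands on all 6 array records. Both preparations therefore carried the transgene, in which a shortened Stra8 promoter, active in germ cells, drives human CD4. The labels give no age, strain or treatment for either group, and nothing states whether the 3 replicates of the total testicular cells came from separate mice, so a p-value measures the spread between these samples, which may be technical.

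The blood-testis barrier is a belt of mixed junctions between neighbouring Sertoli cells, the somatic nurse cells of the seminiferous tubule. It separates spermatogonia and the earliest spermatocytes, which lie below it, from later germ cells above it. Claudins and occludin form the tight junction strands, ZO-1 ties them to actin, junctional adhesion molecules and cadherins hold membranes together, beta-catenin links cadherins to the cytoskeleton, and connexins form gap junction channels. Sertoli cells are known as the main testicular source of claudin-11, but several members, among them the genes of beta-catenin, ZO-1 and connexin 43, are used by many cell types.

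None of the 22 member probe sets passed an adjusted p of 0.05 (limma over all probe sets, Benjamini-Hochberg), where 1.55% of all probe sets did, 1.4% higher and 0.15% lower in stem cell arrays. At an unadjusted p under 0.05, 8 member probe sets were higher and 1 lower, against a background of 11.4% and 12.1% of all probe sets. All 3 stem cell arrays lay above all 3 total testicular cell arrays for 8 member probe sets (background 13.5%) and below them for 2 (background 17.5%). These 10 belonged to only 4 genes: 5 to Gja1, 2 to Ctnnb1, 1 to F11r and, in the lower direction, 2 to Cdh2. The median log2 difference was 0.25 over the 22 probe sets, with 16 positive and 6 negative, and -0.03 over all probe sets. Stem cell replicate 1 stood farthest from the rest on the first principal component. Without it, 8 member probe sets had separate groups in the higher direction and 2 in the lower. The background was then 16.1% and 20% of all probe sets. Leaving out an array cannot make separate groups overlap, so the member counts could not fall.

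The upstream sequences of the 3 genes whose brightest probe set was higher on all stem cell arrays are shown because these genes shared a direction. Each is the 250 bases before the annotated start, from RefSeq, mouse build GRCm38.p6, 5′ to 3′ on the plus strand. Capitals mark matches on either strand to TGANTCA (the AP-1 site), GAGGAA (an ETS core with its flanks), CCAAT (the CCAAT box), GGGCGG (the GC box) or TATAAA (the TATA box), and no match overlapped another.
Gja1, chr10:56377050-56377299: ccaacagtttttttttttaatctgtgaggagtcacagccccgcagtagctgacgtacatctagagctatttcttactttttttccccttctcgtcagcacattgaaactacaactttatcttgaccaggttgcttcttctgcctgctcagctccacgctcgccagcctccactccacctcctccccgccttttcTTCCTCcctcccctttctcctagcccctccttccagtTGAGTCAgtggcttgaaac
Ctnnb1, chr9:120933150-120933399: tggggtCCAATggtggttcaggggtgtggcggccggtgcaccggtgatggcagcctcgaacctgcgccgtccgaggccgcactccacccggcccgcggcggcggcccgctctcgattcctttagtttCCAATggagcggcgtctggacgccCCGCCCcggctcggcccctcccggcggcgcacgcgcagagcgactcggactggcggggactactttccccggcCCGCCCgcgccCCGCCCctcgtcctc
F11r, chr1:171437311-171437560: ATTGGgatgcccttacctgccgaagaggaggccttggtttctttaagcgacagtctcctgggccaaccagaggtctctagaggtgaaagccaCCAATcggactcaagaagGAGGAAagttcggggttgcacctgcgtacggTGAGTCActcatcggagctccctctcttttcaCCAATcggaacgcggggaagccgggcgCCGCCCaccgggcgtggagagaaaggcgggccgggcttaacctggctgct

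The Gja1 window held 1 AP-1 match, 19 bases before the start, and 1 ETS match. The F11r window also held 1 of each, with its AP-1 match 109 bases before the start, besides 3 CCAAT matches and 1 GC box. The Ctnnb1 window had neither an AP-1 nor an ETS match, but 2 CCAAT matches and 3 GC boxes, and it was the richest in G and C at 74.8%, against 60% for F11r and 50% for Gja1. Among 32851 RefSeq windows of the same length, 6.75% held the AP-1 letters, 23.3% the ETS letters, 33.8% CCAAT, 32.7% the GC box and 12.4% TATAAA. Windows at the genes' own start are described for 6 of the 9 members. In the other 3 of these, the Cldn11 window held 2 CCAAT matches, and those of Cldn3 and Ocln 1 GC box each. Cdh2 lies on chromosome 18, whose windows were left out for members, so its upstream sequence was not examined. A match of letters is a description and not a binding site.

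**Figure D1:**
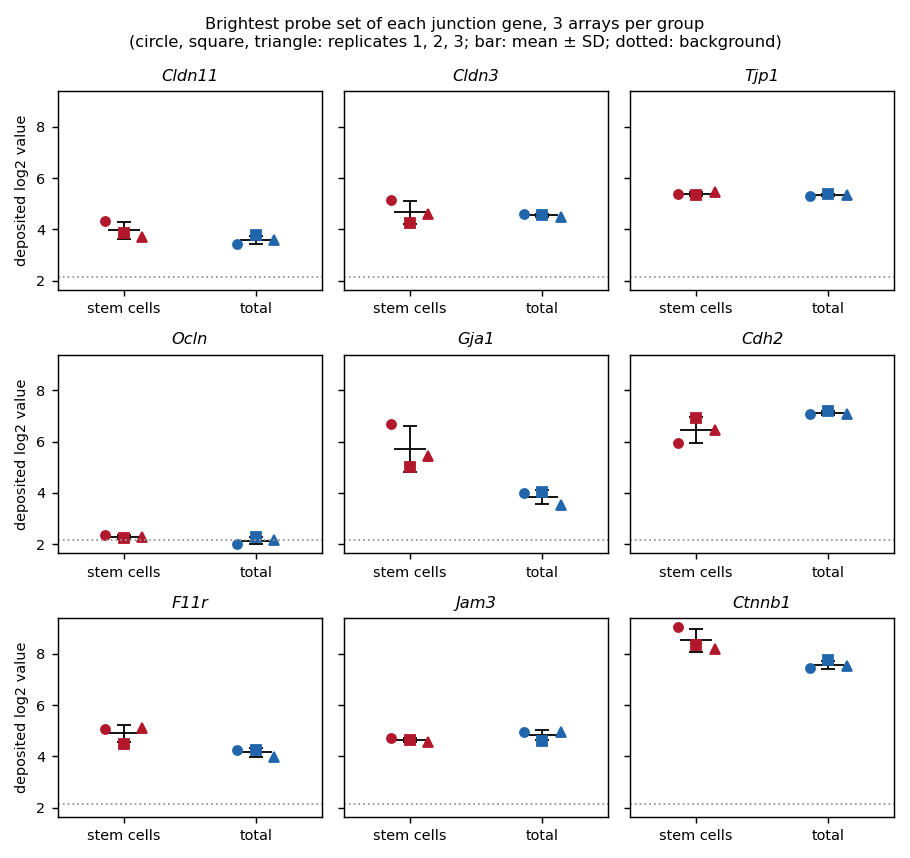
Deposited log2 values of the brightest probe set of each of the 9 genes on 3 stem cell arrays (left, red) and 3 total testicular cell arrays (right, blue), with mean ± SD and the background of 2.15 as a dotted line. The groups stand apart for Gja1, Ctnnb1 and F11r, higher in stem cell arrays, and for Cdh2, lower, and overlap for the other 5 genes.

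Gja1 encodes connexin 43, the gap junction protein that couples Sertoli cells to one another and to germ cells, and which is also known in Leydig cells. Its brightest probe set, 1437992_x_at, gave log2 values of 6.71, 5.01 and 5.44 on the stem cell arrays, against 4.0, 4.02 and 3.53 on the total testicular cell arrays. The groups did not overlap, and stem cell replicate 1 stood highest. The means were 5.72 ± 0.88 in stem cells and 3.85 ± 0.28 in total testicular cells (SD, n = 3 each), which is 3.64-fold higher in stem cells. The log2 difference of 1.87 ± 0.39 (SE; 95% interval 0.99 to 2.74) just missed the threshold with limma (adjusted p = 0.0513). With stem cell replicate 1, 2 or 3 left out in turn, the adjusted p was 0.0167, 0.0293 and 0.0259, with differences of 1.37, 2.22 and 2.01. Without total testicular cell replicate 1, 2 or 3 it was 0.214, 0.142 and 0.235. Over all genes, 219 passed the adjusted threshold with all arrays. Without stem cell replicate 1, 2 or 3 the count was 346, 941 and 889. Without total testicular cell replicate 1, 2 or 3 the count was 28, 47 and 36.

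The other 5 Gja1 probe sets pointed the same way with smaller differences, from 0.40 to 1.26. On 1415800_at the stem cell arrays read 4.56, 3.34 and 3.48, against 2.49, 2.99 and 2.65 on the total testicular cell arrays, again without overlap (difference 1.08, adjusted p = 0.0980). On 1438945_x_at they were 4.88, 2.92 and 3.69 in stem cells, against 2.56, 2.38 and 2.76 (difference 1.26, adjusted p = 0.124). The groups overlapped on 1 of the 6, 1415801_at, with 4.15, 3.39 and 2.84 in stem cells, against 2.92, 3.30 and 2.95 (difference 0.40, 95% interval -0.28 to 1.08). The dimmest, 1438650_x_at, lay above background on all 3 stem cell arrays and on 0 of the 3 total testicular cell arrays (difference 0.80, adjusted p = 0.0625), so the size of its difference is uncertain. In the array's naming, the suffix x marks probe sets in which some probes also match other sequences, and 4 of the 6 carry it, the brightest included. The mean of all 6 probe sets differed by 1.01 ± 0.27 (SE, limma adjusted p = 0.0877), a smaller difference than on the brightest alone.

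**Figure D2:**
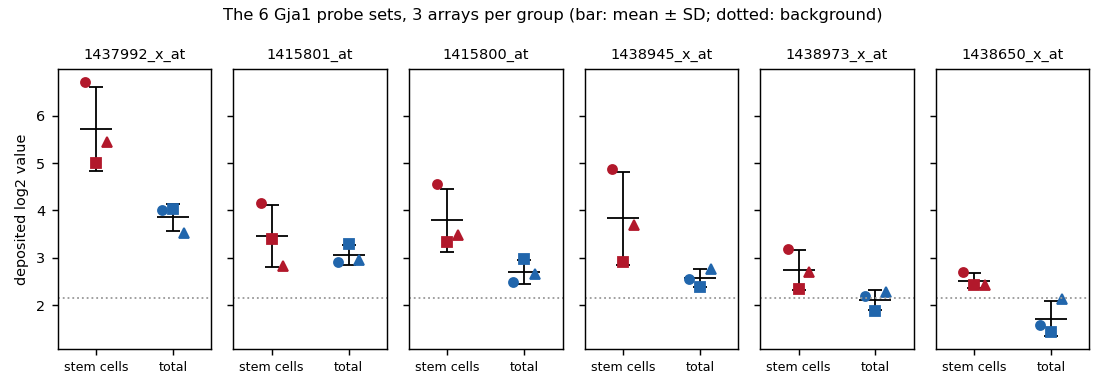
Log2 values of the 6 Gja1 probe sets, brightest at the left, on 3 stem cell arrays (red) and 3 total testicular cell arrays (blue), with mean ± SD and background (dotted). Replicate 1 (circle) is the highest stem cell array on each of the 6, and the groups overlap only on 1415801_at.

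Ctnnb1 encodes beta-catenin, which binds the tails of cadherins at adherens junctions and also carries Wnt signals to the nucleus. Its brightest probe set read 9.03, 8.36 and 8.17 on the stem cell arrays, against 7.44, 7.75 and 7.54 on the total testicular cell arrays. Every stem cell array was above every total testicular cell array, with means of 8.52 ± 0.45 and 7.58 ± 0.16 (SD, n = 3 each), a ratio of 1.93. The log2 difference was 0.95 ± 0.22 (SE, limma adjusted p = 0.0670). Leaving out stem cell replicate 1 (0.69, adjusted p = 0.0364) or 3 (1.12, adjusted p = 0.0180) brought it past the threshold, and leaving out any other single array did not. Over all genes, 346 and 889 passed without stem cell replicates 1 and 3, against 219 with all arrays. A second Ctnnb1 probe set, at 6.54, 5.89 and 6.08 in stem cells, against 5.28, 5.41 and 5.67, also had separate groups (difference 0.72, adjusted p = 0.104). On the remaining one the groups overlapped, at 6.53, 6.23 and 5.47 in stem cells, against 5.57, 5.51 and 5.85 (difference 0.43, adjusted p = 0.353).

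Cdh2 encodes N-cadherin, the classical cadherin of the seminiferous epithelium, present in Sertoli cells and in germ cells. It was the only member whose groups stood apart in the lower direction, and it did so on both of its probe sets. The brighter read 5.94, 6.94 and 6.45 on the stem cell arrays, against 7.08, 7.19 and 7.09 on the total testicular cell arrays. The total testicular cell arrays were close together, whereas the stem cell arrays were spread, with replicate 1 lowest. The means were 6.44 ± 0.50 in stem cells and 7.12 ± 0.06 in total testicular cells (SD, n = 3 each), and the difference of -0.68 ± 0.24 (SE; 95% interval -1.22 to -0.14) did not pass (limma adjusted p = 0.142). Leaving out stem cell replicate 2 brought it past the threshold (-0.93, limma adjusted p = 0.0373). At that setting 941 genes passed in all, 527 of them lower, against 219 and 17 with all arrays. The Cdh2 difference was -0.43 without replicate 1 (adjusted p = 0.216). The dimmer probe set gave 4.52, 4.84 and 5.01 in stem cells, against 5.07, 5.49 and 5.12 (difference -0.44, adjusted p = 0.233). Cdh2 and its binding partner Ctnnb1 thus had differences of opposite sign in these arrays.

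F11r encodes junctional adhesion molecule A, an immunoglobulin-type protein of tight junctions that is also carried by blood cells. One of its probe sets read 5.08, 4.49 and 5.11 on the stem cell arrays, against 4.25, 4.25 and 3.97 on the total testicular cell arrays. The groups did not overlap, with means of 4.90 ± 0.35 and 4.15 ± 0.16 (SD, n = 3 each) and a difference of 0.74 ± 0.22 (SE, limma adjusted p = 0.103). Of the 6 arrays, only the removal of stem cell replicate 2 brought it past the threshold (0.94, adjusted p = 0.0345). That removal raised the count over all genes from 219 to 941. The other F11r probe set, with the suffix x, showed no such separation, at 4.03, 3.63 and 3.63 in stem cells, against 3.64, 3.96 and 3.59 (difference 0.04, 95% interval -0.41 to 0.48). The probe sets of F11r therefore disagree.

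Jam3 encodes junctional adhesion molecule C, which in mouse testis is known from spermatids, where it takes part in their polarisation and contact with Sertoli cells. Its brighter probe set read 4.70, 4.63 and 4.56 on the stem cell arrays, against 4.94, 4.60 and 4.94 on the total testicular cell arrays. The values overlapped, with a difference of -0.19 (95% interval -0.59 to 0.21, adjusted p = 0.545). The dimmer one lay near background in both groups, above it on 1 of 3 stem cell arrays and 2 of 3 total testicular cell arrays, with a difference of -0.06.

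The tight junction strand genes did not separate the groups. Cldn11, the claudin without which mice lack a functional barrier and are sterile, read 4.32, 3.88 and 3.70 on the stem cell arrays, against 3.45, 3.77 and 3.58 on the total testicular cell arrays. Replicates 1 and 2 of the stem cells were above every total testicular cell array and replicate 3 was not. The difference was 0.36 ± 0.21 (SE; 95% interval -0.11 to 0.84, adjusted p = 0.320). Cldn3, a claudin of newly assembling barrier junctions in the mouse, had 4 probe sets with overlapping groups and differences from -0.22 to 0.12. Its brightest read 5.15, 4.27 and 4.61 in stem cells, against 4.61, 4.56 and 4.48 (adjusted p = 0.792), and the sign of its difference turned without stem cell replicate 1 (-0.12). Ocln, the gene of occludin, lay near background, with 2.35, 2.23 and 2.26 in stem cells, against 2.00, 2.27 and 2.15, and its difference of 0.14 (95% interval -0.12 to 0.40) is measured at the limit of detection. Tjp1 encodes the scaffold protein ZO-1 and read 5.38, 5.33 and 5.46 in stem cells, against 5.29, 5.38 and 5.33. Its difference of 0.05 had a 95% interval of -0.30 to 0.41. For Cldn3, Ocln and Tjp1 the sign changed when arrays were centred on the hybridization controls, and for Tjp1 also under median centring.

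**Figure D3:**
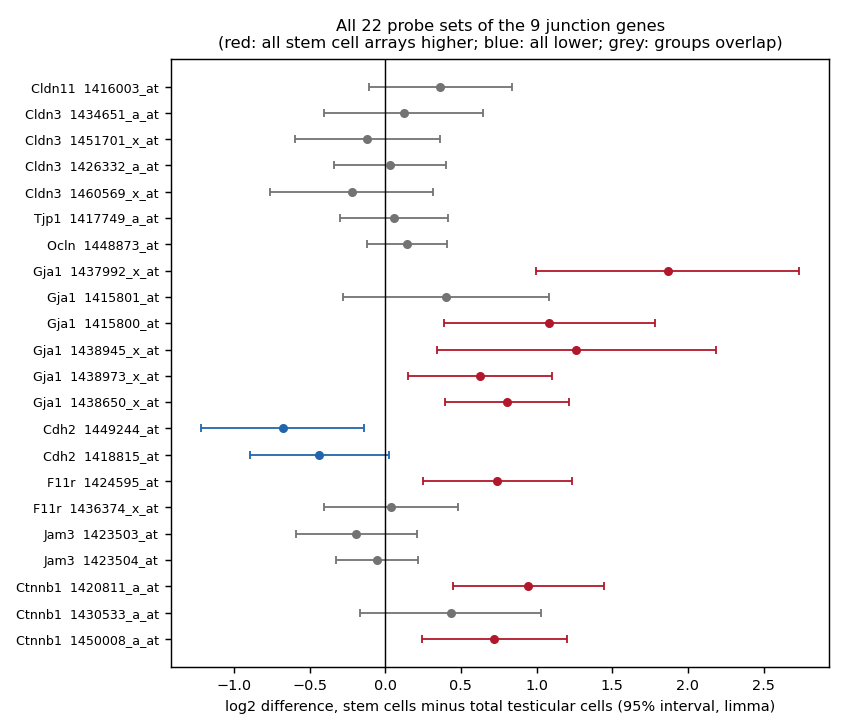
Log2 difference, stem cells minus total testicular cells, for each of the 22 member probe sets with its 95% interval from limma. Red marks 8 probe sets with every stem cell array higher, blue 2 with every one lower, and grey 12 with overlapping groups; the brightest Gja1 probe set lies farthest from 0 at 1.87.

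Run conditions were read from the array headers. The arrays were washed in 3 fluidics rounds (runs that started less than 15 minutes apart), and stem cell replicate 3 was alone in its round. Within round 1, stem cell replicate 1 minus the mean of total testicular cell replicates 1 and 3 was 2.94 for Gja1, 1.54 for Ctnnb1, 0.98 for F11r and -1.15 for Cdh2. Within round 3, stem cell replicate 2 minus total testicular cell replicate 2 was 0.98, 0.61, 0.24 and -0.25 for the same genes. The signs could not differ between the rounds, because these genes were taken for groups that did not overlap. The sizes were larger in round 1. With the round as a block, Gja1 (2.10, adjusted p = 0.0292) and Ctnnb1 (1.15, adjusted p = 0.0282) passed, and F11r (0.66, adjusted p = 0.140) and Cdh2 (-0.76, adjusted p = 0.106) did not. Only 1 fluidics module held both groups, with stem cell replicate 2 and total testicular cell replicate 3. Their differences, which are also the values with the module as a block, were 1.47 for Gja1, 0.83 for Ctnnb1, 0.53 for F11r and -0.15 for Cdh2, and none passed (limma adjusted p from 0.104 to 0.659).

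Transcripts of other cell types differed between the preparations, and in bulk RNA fewer cells of a type and less RNA per cell cannot be told apart. All 12 macrophage markers were higher at an unadjusted p under 0.05 and 10 passed the adjusted threshold, among them Lyz2, the macrophage lysozyme (log2 mean 10.06 in stem cells and 5.36 in total testicular cells), and Csf1r, the CSF1 receptor (9.98 and 5.22). Their summed linear signal ranged from 2636 to 9701 on stem cell arrays and from 269.0 to 390.4 on total testicular cell arrays. All 5 Leydig cell markers were higher at an unadjusted p under 0.05 and none passed, with Cyp17a1, of androgen synthesis, at 9.89 and 7.97. Of 15 Sertoli cell markers, the type to which the barrier belongs, 7 were higher and 0 lower at an unadjusted p under 0.05. The background was 11.8% and 13.1% of genes. Sox9, Gata4, Wt1, Amh and Fshr had overlapping groups, with differences of -0.006, 0.06, 0.11, -0.11 and 0.29. Of these, Sox9, Gata4, Amh and Fshr lay near background, with stem cell means of 2.66, 2.67, 2.81 and 2.39. The brighter Inha, Cst9, Cst12, Aard and Tsx were higher on every stem cell array, by 1.10, 0.82, 0.63, 0.46 and 0.40. Of the 15, 1 passed, Clu (clusterin, difference 2.02, limma adjusted p = 0.0234). Clu no longer passed without total testicular cell replicate 1, 2 or 3 (adjusted p = 0.132, 0.0958 and 0.135). Over all genes only 28, 47 and 36 passed then, against 219. The summed Sertoli signal ranged from 2415 to 3999 on stem cell arrays and from 1373 to 1718 on total testicular cell arrays. A linear sum is weighted to the brightest gene, here Clu. It read 11.04, 9.52 and 10.31 on stem cell arrays, against 8.34, 8.35 and 8.14 on total testicular cell arrays. None of these lists had a marker at background on all 6 arrays. The part of macrophage, Leydig or Sertoli cell transcripts in the member differences was not tested.

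Markers of spermatogonia, the labelled identity, were above background in both groups. Of 8 such markers 0 passed with limma. At an unadjusted p under 0.05, 1 was higher and 1 lower (background 11.8% and 13.1% of genes). The higher was Stra8 (difference 1.01, limma adjusted p = 0.0832) and the lower Zbtb16 (-0.43, adjusted p = 0.178). Id4, the brightest of the list, was lower on all stem cell arrays (-0.55, adjusted p = 0.232). Stra8 and Dmrt1 (0.40, limma adjusted p = 0.240) were higher on all of them. Over all probe sets, 13.5% were higher and 17.5% lower on all stem cell arrays. Prm1, a protamine of late spermatids and the brightest probe set tested, had means of 13.06 in stem cells and 13.11 in total testicular cells. The 5 spermatid markers differed by -0.26 to -0.05, all with overlapping groups. Of 5 meiotic markers 0 passed with limma. At an unadjusted p under 0.05, Dmc1 was higher (0.46) and Spo11 lower (-0.63). Endothelial markers gave 0 of 8 and myoid markers 1 of 5 at an unadjusted p under 0.05. None of either list passed. Across all arrays 79.7% to 84.1% of probe sets lay above background, set from the bacterial controls, and the arrays correlated at 0.970 to 0.984 within stem cells and at 0.992 to 0.995 within total testicular cells, over probe sets.

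**Figure D4:**
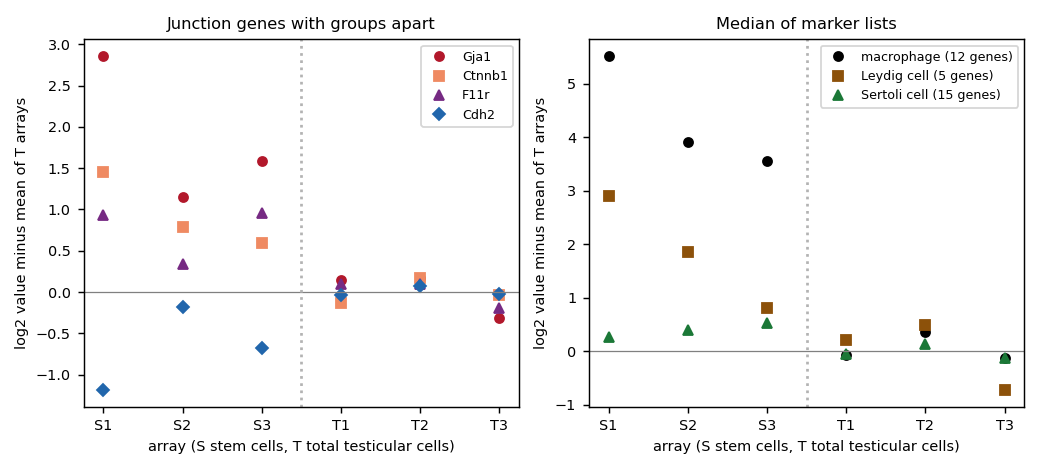
Log2 value minus the total testicular cell mean on each of the 6 arrays, for the 4 junction genes with separate groups (left) and for the median of the macrophage, Leydig cell and Sertoli cell markers (right; its axis runs higher). Gja1, Ctnnb1 and both the macrophage and Leydig medians are highest on stem cell array 1, Cdh2 is lowest there, and the Sertoli median lies between 0.26 and 0.53 on the stem cell arrays.

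On stem cell arrays 1, 2 and 3, Gja1 stood 2.86, 1.16 and 1.59 above the total testicular cell mean, Ctnnb1 1.46, 0.79 and 0.59, and F11r 0.93, 0.34 and 0.96. On the same arrays the macrophage median stood 5.52, 3.92 and 3.55 above it, the Leydig median 2.91, 1.86 and 0.82, and the Sertoli median 0.26, 0.41 and 0.53. Gja1, Ctnnb1 and the macrophage and Leydig medians were all highest on array 1, whereas F11r was about equal on arrays 1 and 3. Cldn11 stood 0.72, 0.28 and 0.10 above the same mean, and the summed linear Sertoli signal was 3999, 2415 and 3112 on those arrays. Both were highest on array 1, where the Sertoli median was lowest, so the summaries of the Sertoli list differ in their order. The sum followed the order of Clu, its brightest gene, at 11.04, 9.52 and 10.31. The genes nearest in profile were found by the root mean square distance of centred log2 values over the 6 arrays. For Gja1 they were Fcgr1, a macrophage Fc receptor (distance 0.11), Serpina3a (0.12) and Atp6ap1, an accessory subunit of the vacuolar proton pump (0.15). For Cdh2 they were Ccdc65, of the axoneme (0.04), Incenp, of the chromosomal passenger complex (0.04), and Pkd2l2 (0.05). For F11r they were Anxa6, an annexin (0.07), Myo1g, a blood cell myosin (0.09), and Smarcd3 (0.09), and for Ctnnb1 Atp5g2, of ATP synthase (0.05), Prdx2, a peroxidase (0.06), and Ppp2r1a, of phosphatase 2A (0.07). A short distance describes 6 arrays and nothing else.

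The other genes of the junctional machinery, were read by their brightest probe set. Of 104 further junction and barrier genes listed, 90 were measured and 1 passed the adjusted threshold, where 1.77% of all genes did. In the tight junction list 0 of 36 passed with limma, 2 were higher and 3 lower at an unadjusted p under 0.05 (background 11.8% and 13.1% of genes), and the median difference was -0.05, as over all genes. The largest differences were those of Lsr, a protein of tricellular contacts (4.76, 4.30 and 4.93 in stem cells, against 3.82, 3.79 and 3.58; difference 0.93, adjusted p = 0.0627), Prkci, the polarity kinase (0.74, adjusted p = 0.0872), and Cldn13 (-0.64, adjusted p = 0.198). A second Prkci probe set, above background on all 6 arrays, differed by 0.11 with overlapping groups. Lsr came past the threshold once stem cell replicate 2 was removed (1.11, adjusted p = 0.0278), a setting with 941 genes past it in all, against 219.

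In the adherens junction and ectoplasmic specialization list 0 of 20 passed with limma, and the median difference was 0.16. At an unadjusted p under 0.05, 3 were higher and 3 lower. For this list and the gap junction and desmosome lists, the background was again 11.8% and 13.1% of genes. For some genes the probe sets disagreed. Eps8 differed by 0.14 on its brightest but by 1.13 and 0.74, with separate groups, on the others. Vcl differed by 0.19 on its brightest and -0.74 on the other, and Nectin2 by 0.41 and -0.76. Ctnna1, the alpha-catenin that joins beta-catenin to actin, read 7.10, 6.76 and 6.44 in stem cells, against 5.79, 6.17 and 5.87. Its groups stood apart, as those of Ctnnb1 did (difference 0.83, limma adjusted p = 0.0787). Removal of stem cell replicate 3 brought Ctnna1 past the threshold (0.99, adjusted p = 0.0237), and 889 genes in all passed then, against 219. A second Ctnna1 probe set differed by 0.77 (adjusted p = 0.203), and the remaining one lay below background on all 6 arrays. Zyx, of focal contacts, differed by 0.52 (adjusted p = 0.128) and Actn1, an actin cross-linker, by 0.50 (adjusted p = 0.105). A second Zyx probe set differed by 0.30 with overlapping groups, and the other Actn1 probe sets had means below background in both groups. In the gap junction list, besides Gja1, 0 of 11 passed with limma and 0 were higher and 1 lower at an unadjusted p under 0.05 (median -0.09). Gjc1, the gene of connexin 45, differed by -0.29 and turned sign without stem cell replicate 1 (0.02), and Gja5, of connexin 40, by -0.25 at values below background. Among 8 desmosome genes 0 passed with limma, 0 had an unadjusted p under 0.05, and Pkp4, a plakophilin, differed by -0.28 on its brightest probe set and by 0.11 on the other. Of the 16 claudins measured besides Cldn11 and Cldn3, 4 lay above background on all 6 arrays, and 8 had means below background in both groups.

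**Figure D5:**
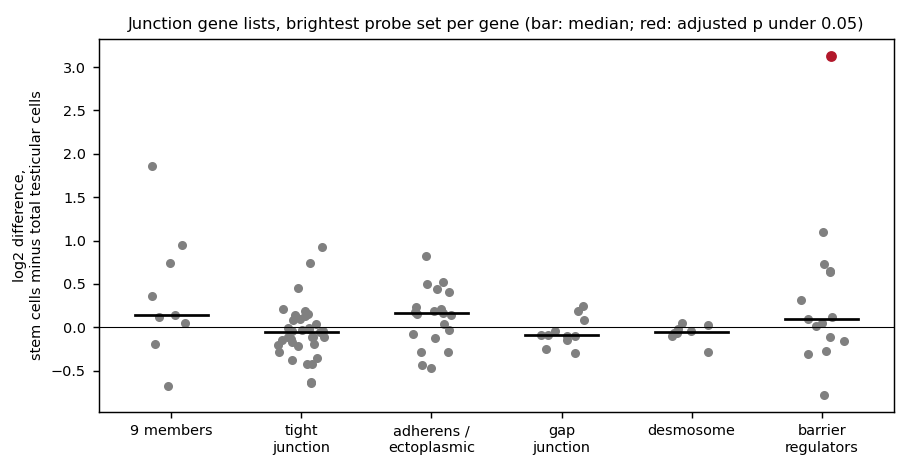
Log2 difference, stem cells minus total testicular cells, of each gene by its brightest probe set, for the 9 members and 5 lists of further junction and barrier genes; bars are medians and red marks the 1 gene with an adjusted p under 0.05. List medians lie between -0.09 and 0.16, and Tgfbr2 stands alone at 3.12.

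Among 15 regulators of the barrier 1 passed the adjusted threshold, Tgfbr2, the type II receptor for TGF-beta, a cytokine known to open the barrier. It read 7.23, 5.10 and 5.02 on the stem cell arrays, against 2.51, 2.93 and 2.53 on the total testicular cell arrays, a difference of 3.12 ± 0.51 (SE, limma adjusted p = 0.0302). All 3 stem cell arrays were far above the others, and replicate 1 was the highest. The call was lost without total testicular cell replicate 1, 2 or 3 (limma adjusted p = 0.170, 0.103 and 0.156). Few genes passed in all at those settings (28, 47 and 36, against 219). A second Tgfbr2 probe set, above background on all 6 arrays, differed by 0.50 (adjusted p = 0.205). The remaining one lay below background on all 6 arrays. At an unadjusted p under 0.05, 5 regulators were higher and 1 lower (background 11.8% and 13.1% of genes). The lower was Tgfbr1, another TGF-beta receptor gene, with separate groups on its brightest probe set (-0.78, limma adjusted p = 0.119). The other Tgfbr1 probe sets differed by 0.53 and 0.04, with overlapping groups. Cdc42, among the higher, differed by 1.10 on its brightest probe set (limma adjusted p = 0.0769). Its other probe sets differed by 1.38 and 1.16, also with separate groups, and by 0.03 with overlapping groups.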

How the data were processed

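Gene expression was measured on 6 Mouse430A_2 arrays, 3 per group. The authors deposited log2 values for 22690 probe sets, between 1.20 and 13.20. MAS5 and RMA appear in the submitters' processing notes, which do not say here which of them made the values. The deposited log2 values were used as given, without further normalization, and 64 control probe sets were left out. Groups were compared with limma 3.58.1 in R 4.3.3 (lmFit, eBayes with an intensity trend, two-sided, Benjamini-Hochberg over 22626 probe sets). A gene was counted by its brightest probe set, 12393 genes in all, with the adjusted p taken over all probe sets; means of probe sets were adjusted over genes. Background, 2.15, was the 95th percentile of the means of 27 bacterial control probe sets, and 18 of the 22 member probe sets lay above it on all 6 arrays. The small number of arrays limits the precision.

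Genes were named from the platform annotation: 20380 probe sets had 1 gene, 691 several and 1555 none. The members and lists were chosen with earlier results of these data known. Named were all members with every probe set (of Gja1 the brightest and both extremes in full), of each further list up to 6 genes past the threshold with separate groups or else up to 3 with the largest difference, up to 3 markers per list, and the 3 nearest profiles of members with separate groups. Besides these, Sox9, Gata4, Wt1, Amh, Fshr, Zbtb16, Cdc42, Eps8, Vcl and Nectin2 were named after their values were seen. So were Inha, Cst9, Cst12, Aard, Tsx, Dmrt1, Tgfbr1, Dmc1 and Spo11. Same-numbered samples did not deviate together (correlations -0.01, 0.01 and 0.30), so the numbers were not taken to pair the samples. Alternatives were a filter on dim probe sets, median centring, quantile normalization, blocks, other variance settings, array weights, the mean of probe sets, a threshold of 0.01 and leaving out each array.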

Additional observations from a re-analysis of the deposited data

How the results depend on the processing

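No member probe set passed with limma as reported (9 of 22 at an unadjusted p under 0.05), and 1 passed under median centring, 4 with the fluidics round as a block, 2 with array weights, 3 with centring on hybridization controls, and 0 to 4 when single arrays were left out. Of the further junction genes, 1 as reported, 0 passed at a threshold of 0.01, with the module as a block, without the intensity trend or with the mean of probe sets, 3 with the round as a block, 4 with array weights, and 0 to 4 with single arrays left out. Over all genes, 219 as reported (202 higher, 17 lower), the count was 40 at 0.01, 767 with the round block, 0 with the module block, 82 without the trend, 603 with array weights, 737 with hybridization control centring (516 higher, 221 lower), 100 with the mean of probe sets, and 28 (without total testicular cell replicate 1) to 941 (without stem cell replicate 2; 414 higher, 527 lower) with single arrays left out. It was 346 and 889 without stem cell replicates 1 and 3, and 47 and 36 without total testicular cell replicates 2 and 3. The module block, hybridization control centring and the alternatives for other named genes were chosen after seeing the data.

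With the replicate number as a block, 4 member probe sets, 4 further genes and 737 genes in all passed. The samples share only a number, and not every sample correlated best with its own number.

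The signs of Gja1, Ctnnb1, F11r and Cdh2 held on their brightest probe sets under every alternative run. Their groups did not overlap, so leaving out arrays, blocks, array weights, the dim filter and variance settings could not turn these signs. Only quantile normalization, median centring, hybridization control centring and the mean of probe sets could have done so. Median centring and hybridization control centring moved the median of all probe sets to -0.15 and -0.20, from -0.03. Signs turned, cause not tested, as follows. Under hybridization control centring Cldn3 was -0.044, Tjp1 -0.11, Ocln -0.023, the Cldn3 probe set 1426332_a_at -0.13 and the F11r probe set 1436374_x_at -0.13. Under median centring Tjp1 was -0.057, 1426332_a_at -0.080 and 1436374_x_at -0.076, and under quantile normalization 1426332_a_at was -0.075, 1436374_x_at -0.067 and Prm1 0.013. With the module block Cldn3 was -0.22, Tjp1 -0.0030, the Jam3 probe set 1423504_at 0.031 and Jam2 0.20, and with the round block 1426332_a_at was -0.027. With the mean of probe sets Cldn3 was -0.047. With single arrays left out, Cldn3 ran from -0.12 (without stem cell replicate 1) to 0.33, its probe sets 1451701_x_at from -0.26 to 0.075 (without total testicular cell replicate 3), 1426332_a_at from -0.026 (without stem cell replicate 3) to 0.076 and 1460569_x_at from -0.41 to 0.054 (without stem cell replicate 2), 1436374_x_at of F11r from -0.099 (without stem cell replicate 1) to 0.15, and Gjc1 from -0.48 to 0.020 (without stem cell replicate 1).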

Other observations

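Beyond the 9 genes, Nectin3, an adhesion molecule that germ cells carry at their contacts with Sertoli cells in mouse testis, was lower on all 5 of its probe sets. The log2 differences ranged from -0.66 to -0.29, and none passed with limma (adjusted p from 0.120 to 0.209). Jam2, the gene of junctional adhesion molecule B, a partner of Jam3, had 4 probe sets with differences from -0.77 to 0.18, and none passed (brightest -0.63, adjusted p = 0.269). Both genes were singled out after their values were seen.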
